A study of Homo sapiens with 6 samples.

Results

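The genes described here are MYC, its partner MAX and a set of factors that build ribosomes, measured in A549 cells after siRNA against the long noncoding RNA CONCR. Of 34 listed genes, 30 were matched, each through a transcript cluster of the array annotated to that 1 symbol, and the brightest cluster by the mean of the 6 arrays stood for a gene with more than 1. They are 30 of 22411 genes matched in this way, and all 30 passed the filter on dim signals, as did 15497 of all genes. The clusters of NOP56, DKC1 and WDR74 were annotated to several symbols each, and GNL3 had no cluster under its symbol, so these 4 are not analysed here.

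MYC is a transcription factor that binds DNA as a dimer with MAX, preferring the E-box letters CACGTG, and its best known target programme is cell growth. Ribosome biogenesis is a large share of that programme. RNA polymerase I makes the ribosomal RNA precursor in the nucleolus, small nucleolar RNPs (snoRNPs) modify and cut it, and separate sets of assembly factors then mature the small and the large ribosomal subunit.

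A549 is an established human lung adenocarcinoma line. Cells in RPMI medium with 10% fetal calf serum were transfected with Lipofectamine in 2 rounds separated by 24 h, at an siRNA concentration of 40 nM. The CONCR siRNA group (3 arrays) received 2 combined siRNAs against CONCR, so the effect of 1 siRNA alone cannot be separated, and the control siRNA group (3 arrays) received a control siRNA. The study asked what CONCR does in sister chromatid cohesion, and the series calls the 3 knockdowns independent without saying whether cultures were separate. P-values therefore cover only the variation among these 6 samples, and some of it may be technical.

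Values are log2 signals normalized by RMA, which gives all arrays nearly the same distribution. A change in the total RNA per cell could therefore not be seen, and in bulk RNA fewer cells with a transcript and less of it per cell cannot be told apart. The median log2 signal over all clusters was 3.83 to 3.89 on the 6 arrays. Arrays of one group correlated at 0.989 to 0.993, and arrays of different groups at 0.987 to 0.991. The CONCR cluster (DDX11-AS1) read 4.23, 4.49 and 4.64 with CONCR siRNA and 4.71, 4.71 and 4.64 with control siRNA, a difference of -0.23 (SE 0.10) that was not called (adjusted p = 0.42 by limma). Before rounding, every CONCR siRNA array was lower than every control array, as for 12.8% of all genes. The exact permutation test, two-sided, gave p = 0.1, which is the smallest value that 3 arrays against 3 allow, so it cannot decide. With a difference that was not called and a mean of 4.57, close to the filter at 4, the cluster does not check the labels. Of the epithelial markers, KRT8 and KRT18 had mean log2 signals of 11.27 and 11.59, and EPCAM was below the filter at 2.78. KRT19, KRT7 and CDH1 had means of 4.81, 6.01 and 8.12. No epithelial marker was called, but CDH1 was lower on every CONCR siRNA array, with a difference of -0.22 (limma adjusted p = 0.18). KRT8, KRT18, KRT19 and KRT7 were at 0.07, 0.03, 0.02 and 0.05. The summed level of the epithelial list was 12.52 to 12.58 with CONCR siRNA and 12.46 to 12.57 in controls. Markers of other cell types were at 1.78 to 7.19 for 6 fibroblast genes, 1.99 to 8.58 for 6 leukocyte genes and 2.42 to 6.65 for 7 endothelial genes, of which 4, 2 and 4 passed the filter. In each list 1 gene was called higher, PDGFRA by 0.51, CD68 by 0.50 and ESAM by 0.41, where 0.600% of all tested genes were called higher. The other tested markers were not called, with COL1A1 at -0.02, COL1A2 at 0.02, PDGFRB at 0.00, ITGAM at 0.06, CDH5 and CLDN5 at 0.09 and VWF at 0.02, and PTPRC, DCN and LUM had means of 1.99, 1.88 and 1.78. The level summed over a list, which the called gene moves, ran from 8.09 to 8.16 against 7.82 to 7.88 in controls for fibroblast markers, 9.01 to 9.04 against 8.50 to 8.63 for leukocyte markers and 7.82 to 7.88 against 7.57 to 7.68 for endothelial markers (log2 of the summed linear signals). Their part in the results below was not tested.

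The E-box was searched in the promoters of the genes, because these letters are what MYC and MAX are known to bind. RefSeq promoter sequences (build GRCh38.p14, from 250 bases before to 50 after the start site) were matched for 24 of the 30 genes. For each gene only the first listed promoter was searched. The other 6 (BOP1, MYC, NOLC1, NOP58, RRP12 and RRS1) had none to use. The search letters were CACGTG, which read the same on both strands. They occurred in 11 of the 24 promoters (45.8%), against 1108 of 11279 tested genes with a promoter sequence (9.82%). Over all 35116 promoter entries, not reduced to 1 per gene, 2548 held them (7.26%). In all 11 the first letter of the motif lay between position -10 and position 36, counted with the start site as position 1 and no position 0. Over all promoter entries holding the motif, not reduced to 1 per gene, 35.4% had their first copy in the wider span from -50 to 50. The 11 sites are shown 5′ to 3′ on the gene's strand with the motif in capitals and up to 12 bases on each side, so that their likeness and their differing flanks can be seen.
MYBBP1A, chr17:4555340-4555369, minus strand: ggggccggagcaCACGTGtttcgtgtttcg
FBL, chr19:39846356-39846385, minus strand: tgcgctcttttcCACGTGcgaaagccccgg
RRP9, chr3:51941892-51941921, minus strand: gggttcagctgcCACGTGagttctgcggcc
NOP14, chr4:2963374-2963403, minus strand: tccgcggcccggCACGTGtcttagggtagc
WDR43, chr2:28894658-28894687, plus strand: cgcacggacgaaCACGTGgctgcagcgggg
UTP20, chr12:101280083-101280112, plus strand: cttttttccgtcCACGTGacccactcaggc
RCL1, chr9:4792936-4792965, plus strand: cctgttccaaacCACGTGgacgcgtctggg
BYSL, chr6:41921515-41921544, plus strand: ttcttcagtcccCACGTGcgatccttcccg
PES1, chr22:30591880-30591909, minus strand: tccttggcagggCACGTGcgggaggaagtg
NOP2, chr12:6568242-6568268, minus strand: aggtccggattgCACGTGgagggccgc
MRTO4, chr1:19251807-19251836, plus strand: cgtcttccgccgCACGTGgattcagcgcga
In 9 of the 11 the motif begins at or after the start site. These are matches of letters and not measured binding sites.

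After CONCR siRNA, none of the 30 genes passed the test over all clusters, in either direction. Log2 differences (CONCR siRNA minus control siRNA) ran from -0.08 to 0.20. Groups were compared by limma over all 32540 tested clusters with a Benjamini-Hochberg threshold of 0.05, where 1.88% of clusters and 2.61% of the 15497 genes were called, 0.600% of the genes higher and 2.01% lower. The smallest adjusted p among the 30 was 0.14. An unadjusted p under 0.05 was found for 5 of them (16.7%), all higher, against 14.9% of all genes, with 6.04% higher and 8.84% lower. With both directions together, the share of the 30 genes is thus near that of the whole array. By direction it was 16.7% higher and 0 lower, beside 6.04% and 8.84%, and this was not tested.

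The intervals bound differences in array signal. They do not bound the effect of losing CONCR, since the CONCR cluster, at -0.23 and not called, does not show how far CONCR fell. The 95% confidence interval of each difference, not adjusted for the number of genes, lay within a 1.3-fold change, up or down, for all 30 genes. The lowest bound was -0.20 and belonged to MYC, and the highest was 0.33 and belonged to NOP2. With the spread of these arrays, a difference needed a size of 0.27 to 0.42 on the log2 scale, depending on the gene, to pass over all clusters.

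**Figure D1:**
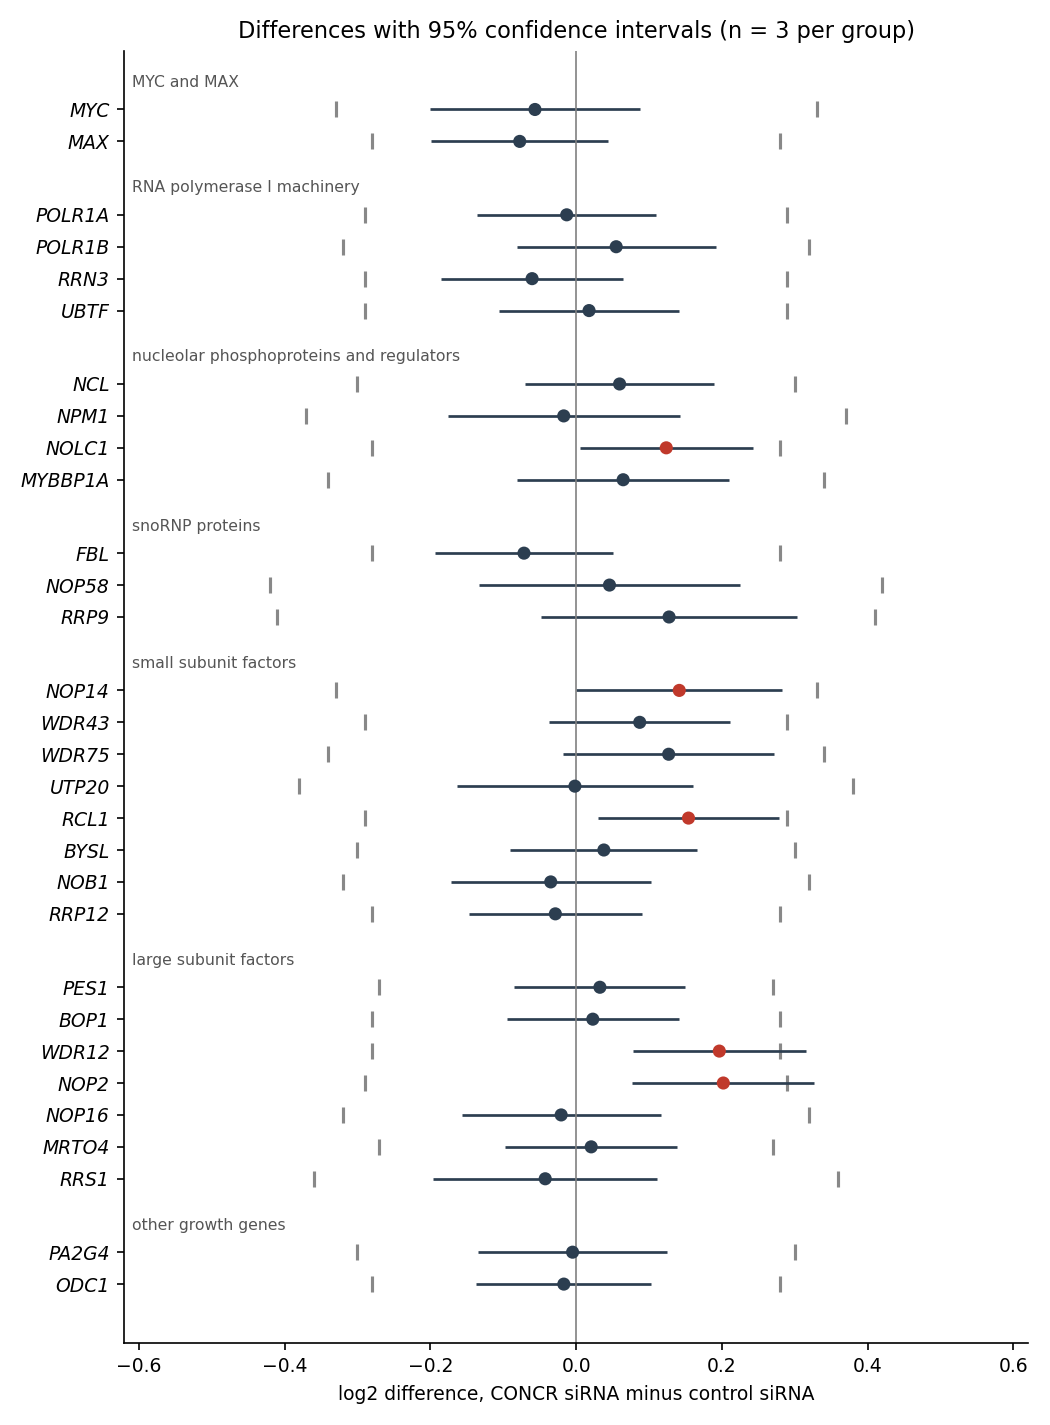
Log2 difference between CONCR siRNA and control siRNA (x axis) for the 30 genes, grouped by role, as points with 95% confidence intervals from limma (n = 3 per group). Red points have an unadjusted p under 0.05, grey ticks mark the size at which a gene would pass the adjusted threshold, and no point reaches its tick.

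MYC itself read 7.52, 7.53 and 7.44 with CONCR siRNA and 7.54, 7.63 and 7.49 with control siRNA. The groups overlapped, and the log2 difference was -0.06 (SE 0.06, adjusted p = 0.80 by limma) with a 95% confidence interval from -0.20 to 0.09. MAX read 5.85, 5.88 and 5.81 with CONCR siRNA and 5.88, 5.93 and 5.95 with control siRNA. Every CONCR siRNA array was lower than every control array for MAX (before rounding), but the difference of -0.08 (SE 0.05, 95% confidence interval -0.20 to 0.04) did not pass (limma adjusted p = 0.63). The arrays measure RNA, so they say nothing of the MYC protein, whose level also depends on its turnover.

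The machinery of RNA polymerase I had differences close to 0. POLR1A and POLR1B, the subunits that form its catalytic core, were at -0.01 and 0.06. RRN3, which recruits the polymerase to the ribosomal DNA promoter, was at -0.06, with 7.65, 7.62 and 7.59 against 7.63, 7.74 and 7.67 in controls. UBTF, the factor that keeps ribosomal DNA open for transcription, was at 0.02. In these 4 genes the arrays of the groups overlapped.

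Among the 4 abundant nucleolar proteins, NOLC1 was the 1 gene with separated groups, which 24.4% of all 15497 genes had. NOLC1, a phosphoprotein that escorts snoRNPs between Cajal bodies and the nucleolus, read 8.59, 8.54 and 8.56 with CONCR siRNA and 8.43, 8.48 and 8.40 with control siRNA. All CONCR siRNA arrays were higher, by 0.12 on average (SE 0.05, unadjusted p = 0.043, limma adjusted p = 0.37). NCL (nucleolin), a multifunctional RNA-binding protein of the nucleolus, was at 0.06 and NPM1 (nucleophosmin), a histone and ribosome chaperone, at -0.02. MYBBP1A, a nucleolar protein known as a regulator of ribosomal RNA synthesis, was at 0.06. For these 3 genes the groups overlapped.

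The snoRNP proteins pointed both ways. FBL (fibrillarin), the methyltransferase of box C/D snoRNPs, read 9.65, 9.59 and 9.63 with CONCR siRNA and 9.69, 9.75 and 9.66 with control siRNA. All CONCR siRNA arrays of FBL were lower, with a difference of -0.07 (SE 0.05, limma adjusted p = 0.67). NOP58, a core protein of the same particles, was at 0.05, with the largest SD among the 30 genes, 0.12 over the 3 control arrays. RRP9, a protein specific to the snoRNP that guides the first cuts of the precursor, was at 0.13 (SE 0.07), where CONCR siRNA replicate 2 stood highest at 6.56 against 6.36 and 6.37 on the other two.

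Of the 8 small subunit factors, 4 had every CONCR siRNA array higher than every control array, against 11.7% of all 15497 genes. None of these 4 passed the adjusted threshold. RCL1, whose yeast counterpart is needed for early cuts of the small subunit precursor, read 6.69, 6.70 and 6.63 with CONCR siRNA and 6.50, 6.57 and 6.49 with control siRNA. Its difference was 0.15 (SE 0.05, unadjusted p = 0.022, limma adjusted p = 0.27). NOP14, a component of the small subunit processome, read 7.67, 7.60 and 7.57 against 7.40, 7.53 and 7.48, a difference of 0.14 (SE 0.06, unadjusted p = 0.0496, limma adjusted p = 0.39). The other two, WDR43 and WDR75, belong to the part of the processome that joins the nascent RNA first. WDR43 was at 0.09 (SE 0.05) and WDR75 at 0.13 (SE 0.06), with limma adjusted p of 0.59 and 0.47.

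The remaining small subunit factors overlapped between groups. UTP20, a large scaffold protein of the processome, was at 0.00 and BYSL (bystin) at 0.04. NOB1, the nuclease that makes the mature end of the small subunit RNA, was at -0.03 and RRP12, an export factor of the precursor particle, at -0.03. Of the 8 small subunit factors 5 had a positive sign, and their median was 0.06.

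The promoters of RCL1 and NOP14 are given whole, as the small subunit factors with the smallest p, each with 1 E-box in capitals just after the start site.
RCL1, chr9:4792694-4792993, plus strand: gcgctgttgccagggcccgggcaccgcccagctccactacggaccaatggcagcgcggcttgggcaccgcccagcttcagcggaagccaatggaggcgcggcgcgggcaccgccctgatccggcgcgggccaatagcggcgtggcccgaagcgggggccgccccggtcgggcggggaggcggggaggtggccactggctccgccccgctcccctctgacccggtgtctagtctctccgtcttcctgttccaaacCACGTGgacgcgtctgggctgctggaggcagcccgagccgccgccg
NOP14, chr4:2963357-2963656, minus strand: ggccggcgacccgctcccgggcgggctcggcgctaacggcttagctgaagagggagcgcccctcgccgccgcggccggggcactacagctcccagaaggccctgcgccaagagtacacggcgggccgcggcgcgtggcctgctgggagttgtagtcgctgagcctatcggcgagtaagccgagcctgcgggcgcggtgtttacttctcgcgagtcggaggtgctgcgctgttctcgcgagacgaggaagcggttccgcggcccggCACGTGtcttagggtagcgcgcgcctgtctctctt
The motif begins at position 5 in RCL1 and at position 16 in NOP14.

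The 2 largest differences of the whole set were in factors of the large subunit. WDR12, which forms the PeBoW complex with PES1 and BOP1 and is needed to mature the large subunit RNA, read 7.70, 7.63 and 7.63 with CONCR siRNA and 7.47, 7.46 and 7.44 with control siRNA. The groups were separated, with a difference of 0.20 (SE 0.05, 95% confidence interval 0.08 to 0.32, 1.15-fold, unadjusted p = 0.0059, limma adjusted p = 0.14). NOP2, a methyltransferase of the large subunit RNA, read 8.18, 8.14 and 8.11 against 7.93, 8.0 and 7.91, also without overlap. Its difference was 0.20 (SE 0.05, 95% confidence interval 0.08 to 0.33, 1.15-fold, unadjusted p = 0.0066, limma adjusted p = 0.15).

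WDR12 and NOP2 were the 2 genes of the set called under some of the alternatives. Both passed when only clusters with a log2 signal over 6 were kept (limma adjusted p = 0.032 and 0.037), where 1102 of 12519 clusters, or 8.80%, were called. They also passed when 1 cluster per gene was fitted and adjusted alone (limma adjusted p = 0.042 and 0.046), where 6.18% of genes were called. These settings change both the moderated variance and the number of features adjusted over, and the unadjusted p of WDR12 was 0.0023 and 0.0024 there, that of NOP2 0.0028 and 0.0027. In the other 13 alternatives neither gene passed. With the replicate number as a block their limma adjusted p was 0.44 each.

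The partners of WDR12 had differences nearer to 0. PES1 was at 0.03, with 6.62, 6.64 and 6.60 against 6.61, 6.61 and 6.54 in controls, and BOP1 at 0.02. Their intervals overlap that of WDR12 (-0.08 to 0.15 for PES1 and -0.10 to 0.14 for BOP1), and the difference between the genes was not tested. NOP16 and MRTO4, assembly factors of the large subunit precursor, were at -0.02 and 0.02, and RRS1, needed to place the smallest ribosomal RNA into that precursor, was at -0.04. In these 5 genes the groups overlapped.

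The promoters of NOP2 and WDR12 are set side by side, as the genes with the largest differences, and only the former holds the E-box letters.
NOP2, chr12:6568242-6568541, minus strand: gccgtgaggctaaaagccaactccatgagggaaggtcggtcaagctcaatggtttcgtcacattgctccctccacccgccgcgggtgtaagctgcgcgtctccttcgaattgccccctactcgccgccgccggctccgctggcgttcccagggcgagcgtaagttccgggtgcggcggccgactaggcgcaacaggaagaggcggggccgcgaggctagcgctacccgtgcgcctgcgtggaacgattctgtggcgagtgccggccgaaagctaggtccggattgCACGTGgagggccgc
WDR12, chr2:202911624-202911923, minus strand: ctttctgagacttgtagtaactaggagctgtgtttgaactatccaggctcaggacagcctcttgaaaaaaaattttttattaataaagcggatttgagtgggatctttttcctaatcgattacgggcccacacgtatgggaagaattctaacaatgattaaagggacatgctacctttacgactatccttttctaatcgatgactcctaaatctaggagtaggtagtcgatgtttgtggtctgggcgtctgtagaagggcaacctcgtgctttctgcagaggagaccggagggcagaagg
No CACGTG in the window of WDR12 says only that these letters are not there.

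ODC1 and PA2G4 complete the set. ODC1, ornithine decarboxylase, the rate-limiting enzyme of polyamine synthesis and a textbook MYC target, read 9.54, 9.55 and 9.51 with CONCR siRNA and 9.54, 9.60 and 9.51 with control siRNA. Its difference was -0.02 (SE 0.05, 95% confidence interval -0.14 to 0.10). PA2G4, a nucleolar growth regulator, read 10.57, 10.49 and 10.48 against 10.47, 10.53 and 10.56, a difference of 0.00 (SE 0.05).

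**Figure D2:**
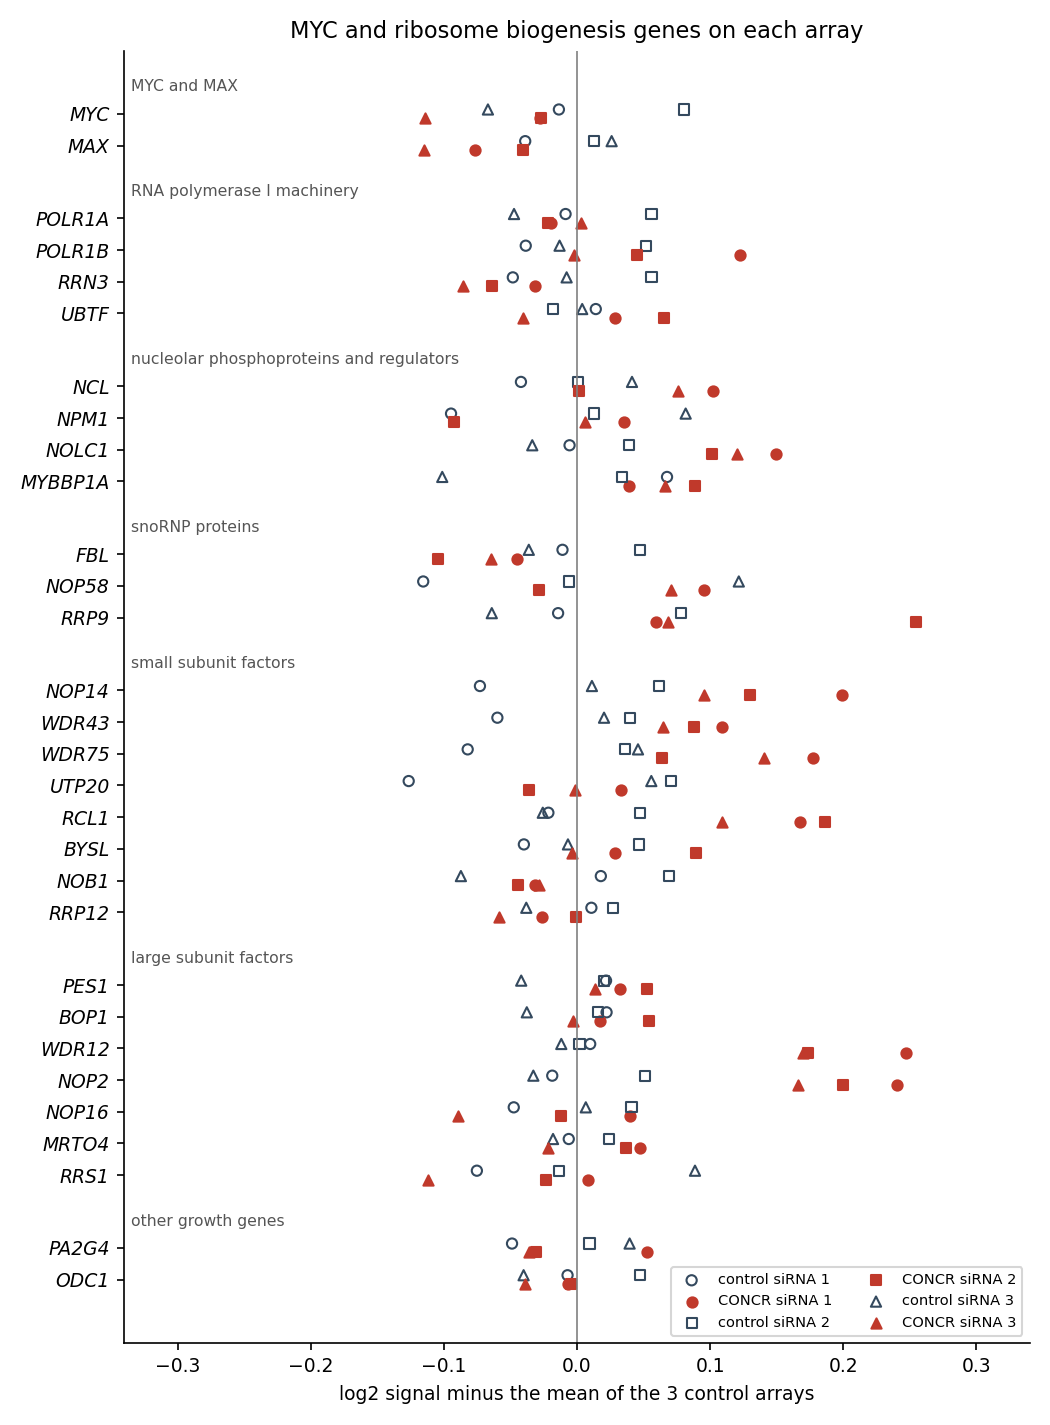
Log2 signal of each of the 30 genes on each of the 6 arrays, as the difference from the mean of that gene's 3 control arrays (x axis), with CONCR siRNA arrays filled and control arrays open. WDR12, NOP2, RCL1, NOP14, WDR43, WDR75 and NOLC1 have all filled symbols to the right of the open ones, and MAX and FBL have them to the left.

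In all, 7 genes had every CONCR siRNA array above every control array (23.3%) and 2 had every one below (6.67%). Over the 15497 genes these shares were 11.7% and 12.8%, and 24.4% together, against 30.0% for the 30 genes. Of the 30 differences 17 were positive and 13 negative, with a median of 0.02 beside 0.01 over all genes. The median size of a difference was 0.05, against 0.07 over 7619 other genes within the same range of signal, whose differences ran from -1.46 to 0.85.

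Arrays of one group differed by about as much as the groups did. The median deviation of the 30 genes from their control means was 0.04, 0.02 and 0.00 on the CONCR siRNA arrays 1, 2 and 3. On the control arrays it was -0.02, 0.04 and -0.01. Control replicate 2 had 27 of the 30 genes above their control mean and control replicate 1 had 7, while the 3 CONCR siRNA arrays had 22, 16 and 14. Over all genes the same medians lay between -0.02 and 0.02.

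Genes with the E-box letters were compared with those without as a description. The 11 genes that hold the motif had a median difference of 0.06, with 9 positive and 2 negative, and the 13 that do not had a median of -0.01, with 5 positive and 8 negative. Over all tested genes with a promoter sequence the medians were 0.01 with the motif and 0.01 without. Of those with the motif 587 were positive and 521 negative, and of those without 5591 were positive and 4580 negative. Whether the genes of the set differ from this was not tested, and those without a promoter sequence, NOLC1 among them, are in neither group. Calls were made for 3.25% of genes with the motif and 2.90% of those without.

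The wider pathway was followed through 10 further lists with 181 genes, of which 157 were tested. CDK4, the kinase that partners D-type cyclins in G1 and a known MYC target, was the 1 call among them (0.637% of the 157, against 2.61% of all genes). It read 8.53, 8.45 and 8.52 with CONCR siRNA and 8.95, 9.08 and 8.97 with control siRNA and fell by 0.50 (SE 0.06, 1.42-fold, limma adjusted p = 0.012). Leaving out any 1 array other than control siRNA replicate 1 ended its call, with an adjusted p from limma of 0.053 without CONCR siRNA replicate 1, 0.068 without CONCR siRNA replicate 2, 0.061 without CONCR siRNA replicate 3 or the second control array, and 0.055 without the third control array. With the replicate block the limma adjusted p was 0.12. The difference itself stayed between -0.53 and -0.46 in all 15 alternatives. Of the 157 genes 27 (17.2%) had an unadjusted p under 0.05, 14 higher and 13 lower, against 14.9% of all genes.

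The other 19 tested MYC targets outside ribosome biogenesis, among them LDHA, TFRC, CAD and SRM, did not pass, and the list median was 0.00. In the network of MAX partners 0 of 10 tested genes passed limma's adjusted threshold, and the list median was 0.09. An unadjusted p under 0.05 was found for 3 of the 10, beside 14.9% of all genes. MXD1, which pairs with MAX and opposes MYC, read 6.57, 6.61 and 6.50 against 6.22, 6.37 and 6.28 in controls, a difference of 0.27 (SE 0.06, limma adjusted p = 0.11). MLX, a MAX-like protein, was also at 0.27 (limma adjusted p = 0.097), and its partner MLXIP, a glucose-responsive factor, was at -0.30 (limma adjusted p = 0.10). All CONCR siRNA arrays were higher for MXD1 and MLX and lower for MLXIP. Under the strict filter and with 1 cluster per gene all 3 passed, with limma adjusted p from 0.024 to 0.030, and MLX passed with an intensity trend too (0.043). In the other alternatives they did not.

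Among regulators of MYC stability 0 of 11 tested genes passed in limma and 4 had an unadjusted p under 0.05, beside 14.9% of all genes. With so few genes in the list this was not tested. SKP2, a ubiquitin ligase subunit that acts on MYC, read 7.71, 7.64 and 7.63 with CONCR siRNA and 7.92, 7.98 and 7.92 with control siRNA, a difference of -0.28 (SE 0.05, limma adjusted p = 0.054). FBXW7, the ligase subunit that marks phosphorylated MYC for destruction, pointed the other way at 0.28 (SE 0.08, limma adjusted p = 0.15). AURKA, a mitotic kinase also known to stabilise MYC family proteins, was at -0.15 (limma adjusted p = 0.28). SKP2 passed with quantile normalization again (limma adjusted p = 0.034), with an intensity trend (0.018), with array weights (0.037), under the strict filter (0.0097) and with 1 cluster per gene (0.011). It did not pass in the other 10 alternatives, with 0.28 under the replicate block, 0.18 without a filter, 0.083 under median centring, 0.054 with clusters of a gene averaged and 0.094 to 0.20 leaving out single arrays. FBXW7 passed narrowly under the strict filter alone.

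None of the other assembly factors passed in the limma fit reported here. An unadjusted p under 0.05 in limma, which 14.9% of all genes had, is counted for each list. Of 30 tested small subunit processome factors 5 had it, 3 higher and 2 lower, with IMP3 at 0.21, BMS1 at -0.22 and KRR1 at -0.28. Of 36 large subunit factors 9 did, 6 higher and 3 lower, with GNL2 at 0.21, NMD3, the export adaptor of the large subunit, at 0.17 and NOL9 at -0.26. Their medians were 0.03 and 0.05. Of 10 other RNA polymerase I genes 1 did (POLR1E, at 0.15), and of 11 cytoplasmic small subunit factors 1 did (RIOK2, at 0.16). None of 13 other snoRNP genes did. Among 14 exosome and RNA processing genes C1D, a cofactor of the nuclear exosome, was at -0.43 (SE 0.08, limma adjusted p = 0.062) and EXOSC6 at -0.28. C1D passed in 4 of 15 alternatives, with an intensity trend (limma adjusted p = 0.035), without CONCR siRNA replicate 1 (0.037), under the strict filter (0.016) and with 1 cluster per gene (0.014), and otherwise had 0.053 to 0.21. NOL9 passed under the strict filter and with 1 cluster per gene (limma adjusted p = 0.030 and 0.033), and GNL2 and BMS1 under the strict filter alone (0.047 each). Only 2 of 13 snoRNA host genes had a cluster with 1 symbol, and of these SNHG8 was at -0.28 (limma adjusted p = 0.16).

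**Figure D3:**
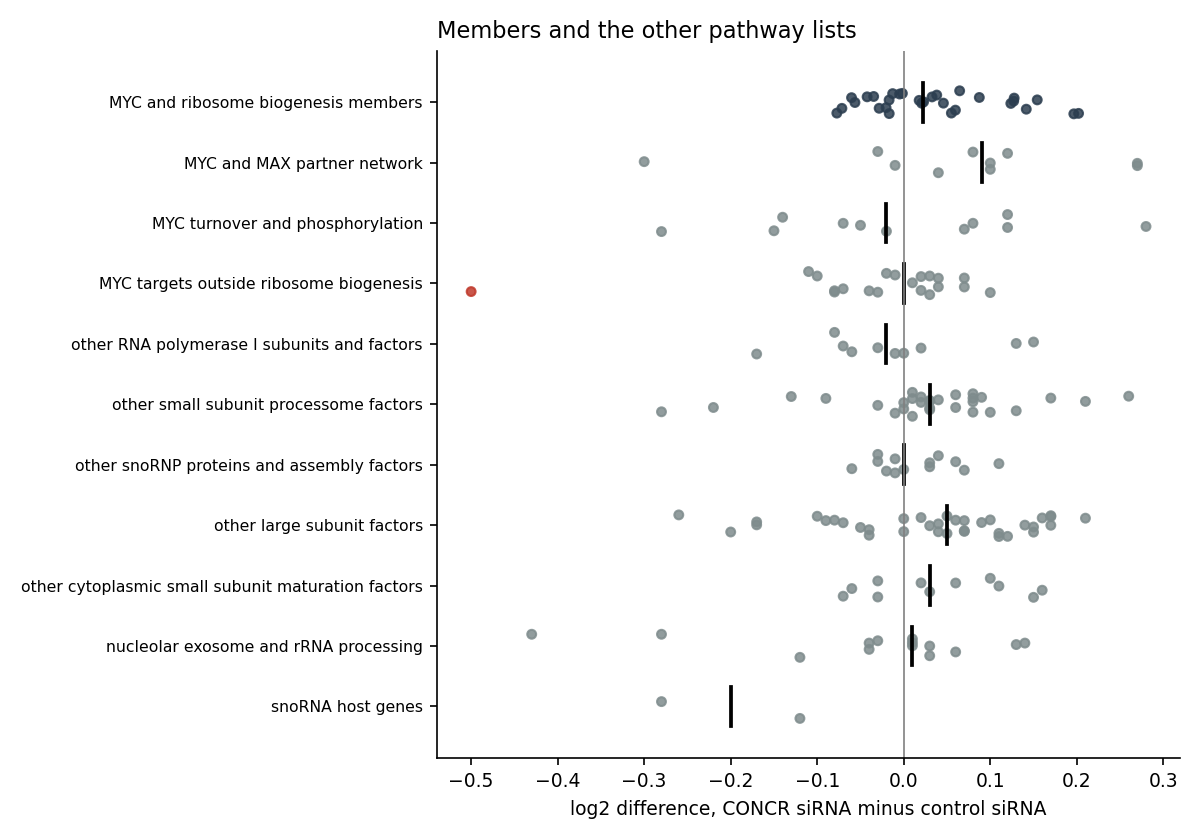
Log2 difference between CONCR siRNA and control siRNA (x axis) for the 30 genes (top row, dark points) and the tested genes of the 10 further lists (grey points), with black bars at the list medians. The red point at -0.50 is CDK4, the 1 gene past the adjusted threshold.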

How the data were processed

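The deposited table holds log2 signals per probe set, made by the authors with RMA in Affymetrix Power Tools, per the submitters' processing notes. Tool versions and the probe sets' genome build are not given in the sources used here. Of 70523 probe sets, 67528 were transcript clusters, and 32540 with a log2 signal over 4 on at least 3 of the 6 arrays were tested. Symbols came from the platform annotation and were updated through RefSeq. limma 3.58.1 (R 4.3.3, lmFit and eBayes, two-sided) was fitted on all tested clusters with Benjamini-Hochberg adjustment, after a test on simulated data, and gave 6.91 degrees of freedom. Precision is limited by the number of arrays, since signals carry no read depth. Signals of different probes do not compare the levels of genes, and the brightest and dimmest clusters were taken only to choose what to show.

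The genes and lists were chosen with earlier results of these data known. Arrays were described singly for MYC, MAX, genes with an unadjusted p under 0.05, and the brightest and dimmest cluster. Of each further list up to 3 genes with the smallest p under 0.05 were named. FBL, RRN3, RRP9, PES1 and ODC1 arrays, and the 30-base E-box windows, were chosen after values were seen. Deviations of same-numbered replicates correlated at -0.27, -0.16 and -0.08, which with 3 arrays per group does not settle whether they were paired. The labels do not say that replicate numbers mark a shared day, so the main fit used no block. Alternatives covered the filter, normalization, moderation, weights, probe set choice, the replicate block and leaving out each array.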

Additional observations from a re-analysis of the deposited data

How the results depend on the processing

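No gene of the set was called lower under any of the 15 alternatives tried, and the median difference stayed between 0.01 and 0.04. The count of higher genes went from 0 to 2 (WDR12 and NOP2) under the strict filter and with 1 cluster per gene, both of which test fewer features. The count of genes with an unadjusted p under 0.05, 5 in the reported fit, was 7 with quantile normalization, 6 with an intensity trend, 3 without a filter, 3 under median centring, 2 with the replicate block, 2 to 5 leaving out single arrays and 4 or 5 in the other alternatives. In the further lists the higher count went from 0 to 4 under the strict filter, 1 with an intensity trend and 2 with 1 cluster per gene. The lower count, 1 in the reported fit, was 6 under the strict filter, 5 with 1 cluster per gene, 3 with an intensity trend, 2 with quantile normalization, 2 with array weights, 0 with the replicate block and 0 to 1 leaving out single arrays. Over all clusters 613 calls became 238 without a filter, 1102 under the strict filter, 965 with an intensity trend, 958 with 1 cluster per gene, 51 with the replicate block and 129 to 411 leaving out single arrays. PA2G4, at 0.00, was at 0.02 with quantile normalization and between -0.03 and 0.01 leaving out single arrays. MAX was below the strict filter and has no value there. For the other changes the cause was not tested.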
